A study of Mus musculus with 7 samples.

Results

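The integrated stress response genes described here are 10 genes of the ATF4 axis, Atf4, Ddit3, Cebpb, Trib3, Sesn2, Chac1, Slc7a11, Asns, Psat1 and Phgdh, chosen by symbol from 55357 genes in the deposited expression table. All 10 symbols were found, in 11 rows, because 2 overlapping gene models carry the name Ddit3. RNA came from CD8 T cells that were sorted as live CD45+ CD8+ cells. The tumours, grown under the skin from MCA205 cells, were taken 14 days after the cells were injected. The tumour hosts were 4 ENT1KO (Slc29a1-/-, replicates 11, 12, 14 and 15) and 3 C57Bl/6 WT mouse samples (replicates 1, 2 and 3). MCA205 is a mouse fibrosarcoma line, and all hosts of both genotypes received it. Slc29a1 encodes ENT1, a nucleoside transporter of the cell surface whose substrates include adenosine. The label is a deletion in the host, not one limited to T cells. The labels state no age and do not say whether each sample was a single animal, so the p-values reflect how far these samples vary, which may be technical.

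The integrated stress response begins when one of several kinases phosphorylates the translation initiation factor eIF2, which lowers general protein synthesis. Translation of a few mRNAs with upstream open reading frames then rises, ATF4 first among them, so the activity of the pathway is set largely by ATF4 protein and an mRNA level does not measure it. ATF4 pairs with C/EBP proteins on composite DNA elements and raises genes of amino acid synthesis, amino acid uptake, glutathione metabolism and feedback control. In T cells the GCN2 branch of the pathway is known for sensing amino acid shortage.

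The composite element is known by the core TGATGNAA, and its presence in the promoters of these genes is described here. Both strands of RefSeq promoter windows were searched (build GRCm38.p6, 250 bases before to 50 bases after each annotated start), and all 10 genes matched at least 1 window. The core occurred in the windows of Asns, Chac1, Slc7a11 and Trib3 and in 3.97% of 32851 promoter windows of all genes. The genes were chosen as genes of the ATF4 axis, so these matches are no test. The stretches follow in gene orientation, 5′ to 3′, with the matched core or its reverse complement TTNCATCA in capitals.
Asns promoter, minus strand, chr6:7693210-7693248: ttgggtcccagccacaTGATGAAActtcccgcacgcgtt
Chac1 promoter, plus strand, chr2:119351033-119351072: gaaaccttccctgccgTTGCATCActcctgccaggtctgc
Slc7a11 promoter, minus strand, chr3:50443637-50443695: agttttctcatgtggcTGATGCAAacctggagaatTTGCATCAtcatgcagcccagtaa
Trib3 start region, minus strand, chr2:152344039-152344062: gcagattagctcaggtTTACATCA
The Asns match began 23 bases upstream of the annotated start and the Chac1 match 193 bases upstream. Slc7a11 held 2 matches in opposite orientation, 66 and 47 bases upstream, and the Trib3 match lay 14 bases past the start. No match was found in the windows of Atf4, Ddit3, Cebpb, Sesn2, Psat1 or Phgdh, which says only that these letters are not in those windows. A match is a description of the sequence and not evidence of binding.

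The libraries held 18624318 to 19660792 gene-assigned reads each. Slc29a1 stood at 13.2 to 17.6 TPM in ENT1KO and at 49.7 to 58.9 TPM in WT libraries, lower but not at 0 in the knockout. TPM, the transcript abundance unit of the deposited table, is a length-corrected level that is scaled to the same total in every library. CD8 T cell markers were present in all libraries, at unequal levels, and the 14 CD8 T cell genes summed to 9219 to 11332 TPM in ENT1KO and to 2891 to 6990 TPM in WT. All 14 were called higher, by a median log2 difference of 1.14. Summed markers of cells outside the sort gate moved the other way. The macrophage and monocyte list (20 genes) summed to 345 to 1555 TPM in ENT1KO and 3976 to 5874 TPM in WT. Of its 19 tested genes 17 were called lower, against 23.1% of all tested genes. Ccr2, with a log2 difference of 0.63, and Cx3cr1, at -0.81, were not called and are named after their values were seen. The neutrophil list (10 genes) summed to 35.6 to 91.0 TPM in ENT1KO and 348 to 530 TPM in WT. Most of the neutrophil sum in WT was 1 gene, Il1b, at 224 to 377 TPM, and Ly6g was at most 0.25 TPM in any library. Il1b and Ly6g are named after their values were seen, and all 8 tested genes of the list were called lower. The fibroblast and tumour list (20 genes) summed to 1203 to 2288 TPM in ENT1KO and 5398 to 8668 TPM in WT. That list holds Thy1, which mouse T cells express strongly, and without Thy1 its sums were 7.08 to 908 TPM in ENT1KO and 4362 to 8279 TPM in WT. Its defining gene Col1a1 was at 0.06 TPM in ENT1KO replicate 15 and 28.4 TPM in replicate 14, and at 167 to 317 TPM in WT. Genes of the 14-gene proliferation list overlapped between the groups in their sum, 1071 to 1604 TPM in ENT1KO and 1299 to 1396 TPM in WT. In bulk RNA of this kind, fewer cells of a type and less RNA per cell cannot be told apart.

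Asns, Chac1, Slc7a11 and Cebpb were lower in the ENT1KO libraries, and no member was called higher. Atf4, Ddit3, Sesn2, Trib3, Psat1 and Phgdh did not pass the test. The test was limma-trend on log2(TPM + 1) over the 13798 genes that reached 1 TPM in 3 or more samples, and a gene was called at a Benjamini-Hochberg adjusted p under 0.05. The 4 lower calls among the 10 genes stand against lower calls in 23.1%, higher calls in 27.5% and calls in either direction in 50.6% of all tested genes. By the authors' deposited table, 6 of the 10 were lower at an adjusted p under 0.05, these 4 with Psat1 and Trib3, against 25.8% of its genes. At an unadjusted p under 0.05 the second Ddit3 model alone was higher. All 10 genes passed the filter, but Chac1 and Slc7a11 reached 1 TPM in WT libraries only, and Trib3 did so in 3 WT libraries and 1 ENT1KO library. A gene that passes only through the group where it is high had to differ, so the count of members called is a description. The groups did not overlap for these 4 genes and for Psat1, all lower in ENT1KO, as for 24.9% of all tested genes (55.2% did not overlap in either direction).

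The scaling bears on the small differences. The median of all tested genes was 0.15 higher in ENT1KO on the TPM scale and 0.00 on the deposited normalized counts, a shift of -0.15, and 54.4% of calls were higher on TPM against 42.9% on normalized counts. Relative to the median of all genes on TPM, Atf4 was at -0.31, Psat1 at -0.49, Phgdh at -0.47 and Sesn2 at -0.30.

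**Figure D1:**
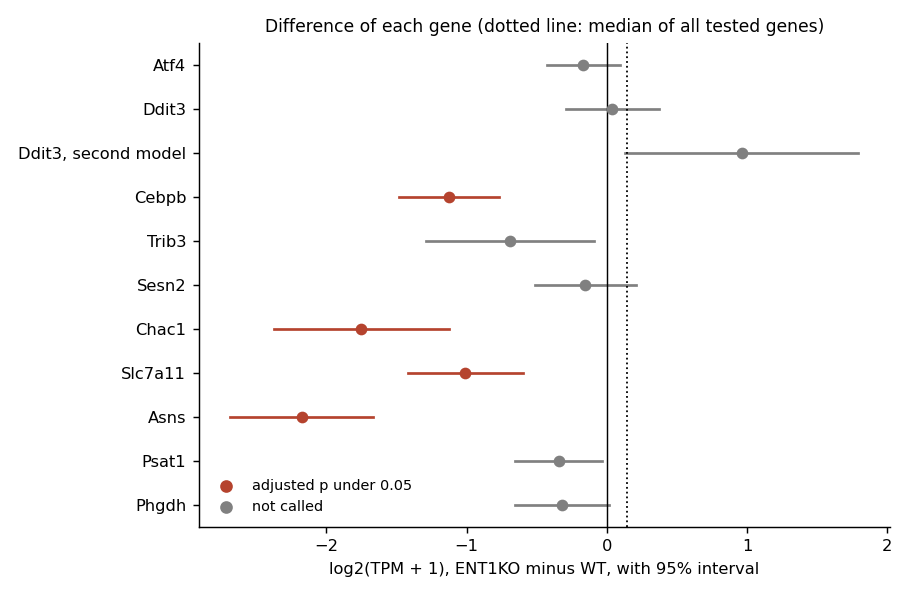
Difference in log2(TPM + 1), ENT1KO minus WT, for the 10 genes and the second Ddit3 model (points, with 95% intervals from limma-trend; red, adjusted p under 0.05; grey, not called). Asns at -2.18, Chac1 at -1.75, Cebpb at -1.13 and Slc7a11 at -1.01 lie left of 0 with their whole intervals, and Atf4, Ddit3, Sesn2 and Phgdh have intervals that span 0.

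Among the enzymes of amino acid synthesis, Asns was the one called. Asns encodes asparagine synthetase, which makes asparagine from aspartate and glutamine (chromosome 6, 7675169 to 7693254, GRCm39). Its level was 4.24, 5.62, 5.59 and 3.97 TPM in the ENT1KO libraries (replicates 11, 12, 14 and 15, an order kept for all members) and 24.03, 35.29 and 18.96 TPM in the WT libraries (replicates 1, 2 and 3). Every ENT1KO library was below every WT library, and WT replicate 2 was the highest. The means were 4.86 ± 0.87 TPM in ENT1KO (SD, n = 4) and 26.1 ± 8.36 TPM in WT (SD, n = 3), a ratio of 0.186. The log2 difference was -2.18 with a standard error of 0.22 (limma adjusted p = 0.00121), and with any single library left out the limma adjusted p lay between 0.000516 and 0.00771. The authors' deposited table gives a log2 fold change of -2.68 with an adjusted p of 1.12e-15.

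Psat1 and Phgdh encode steps of serine synthesis from a glycolytic intermediate. Psat1, the phosphoserine aminotransferase (chromosome 19, 15882042 to 15924701), was at 35.6, 40.5, 48.9 and 47.2 TPM in ENT1KO and at 50.3, 60.4 and 53.3 TPM in WT. The groups did not overlap, but the highest ENT1KO library was only just below the lowest WT library. Its log2 difference was -0.34 (95% interval -0.65 to -0.04, limma adjusted p = 0.0604). Psat1 passed with a difference of -0.61 when normalized counts were used (limma adjusted p = 0.0173), after quantile normalization, at -0.47 (limma adjusted p = 0.0232), and without ENT1KO replicate 14 (limma adjusted p = 0.0452), and the authors' deposited table gives -0.61 with an adjusted p of 0.00455. Phgdh, the phosphoglycerate dehydrogenase that opens the same route (chromosome 3, 98220486 to 98247306), was at 75.3, 74.0, 94.6 and 91.7 TPM in ENT1KO and at 93.3, 126 and 97.1 TPM in WT. ENT1KO replicate 14 lay above WT replicate 1, so the groups overlapped. The log2 difference of Phgdh was -0.32 (95% interval -0.66 to 0.01, limma adjusted p = 0.0967). Phgdh passed after quantile normalization, at -0.46 (limma adjusted p = 0.0291), and in the authors' deposited table its adjusted p was 0.0656. ENT1KO replicates 14 and 15 were the higher ENT1KO libraries for both serine enzymes, and the same libraries had the higher sums of the proliferation list, 1508 and 1604 TPM, against 1071 and 1088 TPM in replicates 11 and 12. In WT the order differed, as replicate 1 had the highest proliferation sum of the WT libraries (1396 TPM) and the lowest Psat1 and Phgdh. WT replicate 2 had the highest level of both enzymes, with a proliferation sum of 1361 TPM. The part of proliferation in these levels was not tested.

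**Figure D2:**
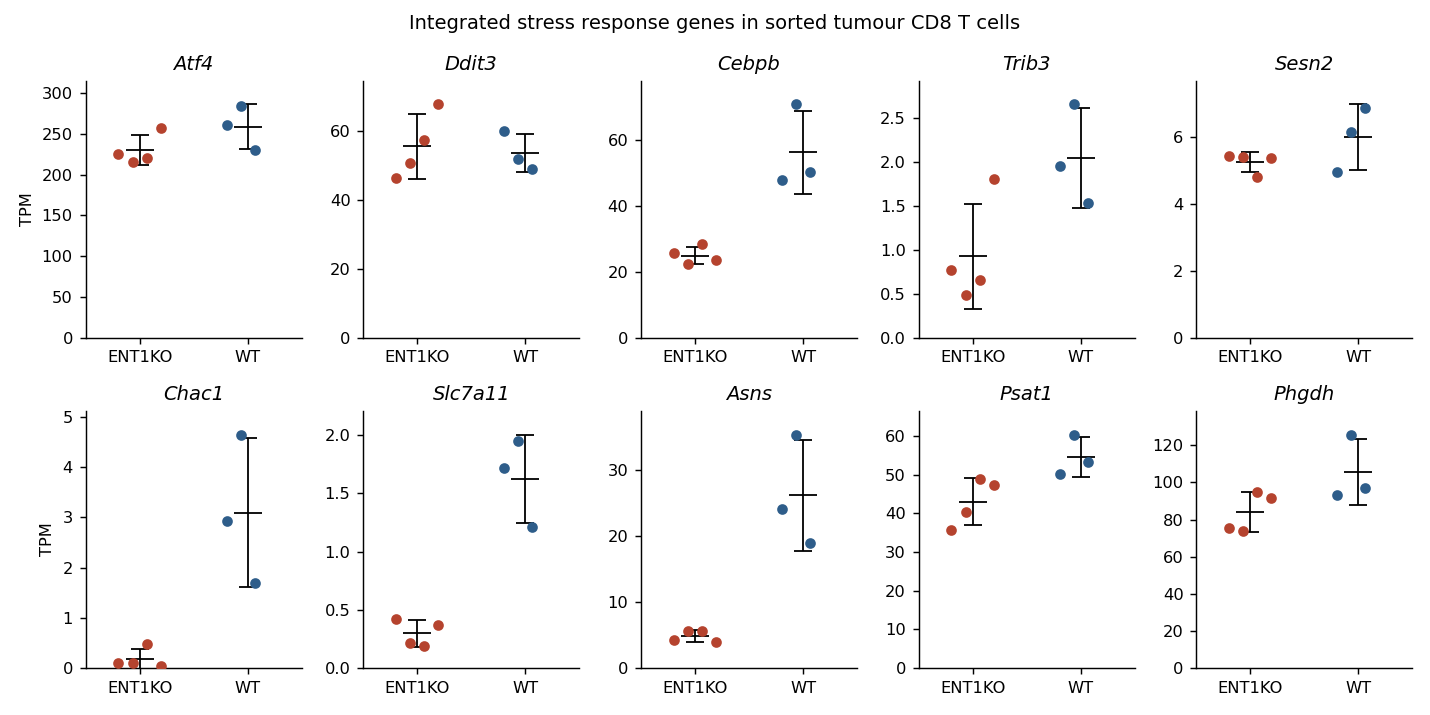
TPM of each gene in each library (points; ENT1KO left, WT right) with the group mean and SD (bars, n = 4 and n = 3); each panel has its own axis from 0, and the lower SD bar of Chac1 in ENT1KO ends at the axis. Asns, Chac1, Slc7a11 and Cebpb show no overlap between the genotypes, and Atf4, Ddit3 and Sesn2 show overlapping points.

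Both genes of glutathione metabolism were lower. Chac1 encodes an enzyme that degrades glutathione (chromosome 2, 119181710 to 119184862), and it stood at 0.09, 0.09, 0.47 and 0.04 TPM in ENT1KO and at 2.93, 4.65 and 1.70 TPM in WT. The gene was near the floor of detection in ENT1KO, with deposited normalized counts of 2.03, 1.95, 11.5 and 0.98, against 76.5, 134 and 43.8 in WT. ENT1KO replicate 14 was the highest of its group and WT replicate 2 of its own. The means were 0.173 ± 0.20 TPM in ENT1KO (SD, n = 4) and 3.09 ± 1.48 TPM in WT (SD, n = 3). The log2(TPM + 1) difference was -1.75 (SE 0.27, limma adjusted p = 0.00216), a scale that understates the change of low genes, and the authors' deposited table gives -4.36 (SE 0.76, adjusted p 1.66e-07).

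Slc7a11 encodes the cystine and glutamate exchanger xCT, which supplies cystine for glutathione (chromosome 3, 49846975 to 50398063). It is one of the amino acid transporters of the ATF4 programme. Its levels were 0.42, 0.21, 0.19 and 0.37 TPM in ENT1KO and 1.72, 1.95 and 1.21 TPM in WT. These levels are low in both genotypes and did not overlap, and unlike Chac1 the lowest ENT1KO value was that of replicate 14. The log2 difference was -1.01 (SE 0.18, limma adjusted p = 0.00325). The call was lost after quantile normalization, at -0.46 (limma adjusted p = 0.155). On normalized counts the difference was -2.79 (limma adjusted p = 0.0034), and the authors' deposited table gives -2.90 with an adjusted p of 8.7e-14.

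Of the transcription factors, Cebpb was lower and Atf4 and Ddit3 were not called. Cebpb encodes C/EBPβ, a partner of ATF4 that is also a major factor of macrophages and neutrophils (chromosome 2, 167530835 to 167532338). It stood at 25.7, 22.3, 28.3 and 23.5 TPM in ENT1KO and at 47.9, 70.8 and 50.2 TPM in WT. The ENT1KO libraries lay close together and all below the WT libraries. The means were 24.9 ± 2.67 TPM in ENT1KO (SD, n = 4) and 56.3 ± 12.6 TPM in WT (SD, n = 3), a ratio of 0.443. The log2 difference was -1.13 (SE 0.16, limma adjusted p = 0.00157), with limma adjusted p from 0.00144 to 0.00771 when 1 library was left out.

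Atf4, which encodes the central activator (chromosome 15, 80139385 to 80141742), was the most abundant member. It stood at 225, 216, 221 and 257 TPM in ENT1KO and at 261, 285 and 230 TPM in WT. ENT1KO replicate 15 lay above WT replicate 3, so the groups overlapped. The log2 difference was -0.17 (95% interval -0.43 to 0.09, limma adjusted p = 0.24), and the authors' deposited table gives -0.32 with an adjusted p of 0.0943.

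Ddit3 encodes CHOP, a transcription factor induced late in the response (chromosome 10, 127126643 to 127132157). Its main gene model was at 46.4, 50.8, 57.5 and 67.9 TPM in ENT1KO and at 60.1, 52.0 and 49.2 TPM in WT. The libraries of both genotypes were interleaved. The log2 difference was 0.04 (95% interval -0.29 to 0.37, limma adjusted p = 0.831), and its sign turned on normalized counts, at -0.12, and after quantile normalization, at -0.10. A second Ddit3 model (127126698 to 127129622) was listed at 44.0, 58.9, 29.2 and 61.1 TPM in ENT1KO and at 40.9, 15.8 and 19.6 TPM in WT. Its normalized count was 0 in every library. In the GENCODE M21 annotation, which is of an earlier build, this model has 105 exonic bases that all lie within exons of the main model, and its coding part of 34 codons ends before the coding start of CHOP, the place of the upstream open reading frame that controls CHOP translation. Reads of the second model and of the main transcript therefore cannot be told apart there, and the way TPM was divided between the models is uncertain. The second model was not called, at a log2 difference of 0.96 (limma adjusted p = 0.0552), but it passed without ENT1KO replicate 14 (limma adjusted p = 0.0239) or without WT replicate 1 (limma adjusted p = 0.0137), and with a pseudocount of 5, at 0.85 (limma adjusted p = 0.0498). With both models summed, a step chosen after the data were seen, Ddit3 was at 104 ± 19.5 TPM in ENT1KO (SD, n = 4) and 79.2 ± 18.9 TPM in WT (SD, n = 3), with a log2 difference of 0.40 (limma adjusted p = 0.112).

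**Figure D3:**
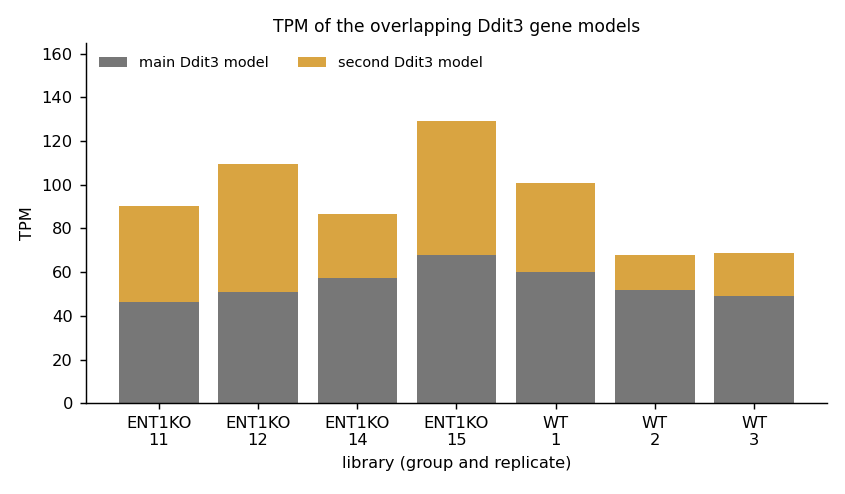
TPM of the main Ddit3 model (grey) and of the overlapping second model (yellow), stacked for each library, ENT1KO replicates left of WT replicates. The main model ran from 46.4 to 67.9 TPM in ENT1KO and from 49.2 to 60.1 TPM in WT, and most of the difference in stack height between libraries comes from the second model.

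The feedback and growth regulators were not called on TPM. Trib3 encodes a pseudokinase that binds ATF4 and CHOP and restrains them (chromosome 2, 152179342 to 152185952). It was at 0.77, 0.48, 0.65 and 1.80 TPM in ENT1KO and at 1.95, 2.65 and 1.53 TPM in WT. ENT1KO replicate 15 lay between WT replicates 3 and 1, and the other ENT1KO libraries lay below all WT libraries. The log2 difference was -0.69 (95% interval -1.29 to -0.09, limma adjusted p = 0.0548). Trib3 passed without ENT1KO replicate 15, at -0.89 (limma adjusted p = 0.0149). It also passed with a difference of -1.45 when normalized counts were used (limma adjusted p = 0.0302), while after quantile normalization it was -0.26 (limma adjusted p = 0.5). The authors' deposited table gives -1.42 with an adjusted p of 0.0117. Sesn2 encodes sestrin 2, a leucine-binding inhibitor of mTORC1 signalling (chromosome 4, 132219343 to 132237812). It was at 5.43, 5.40, 4.81 and 5.36 TPM in ENT1KO and at 4.94, 6.16 and 6.88 TPM in WT. The genotypes overlapped, with a log2 difference of -0.15 (95% interval -0.52 to 0.21, limma adjusted p = 0.434) that was 0.16 after quantile normalization.

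TPM allows the members to be ranked within a genotype. In ENT1KO the order of mean TPM was Atf4 (230), Phgdh (83.9), Ddit3 main model (55.6), Psat1 (43.1), Cebpb (24.9), Sesn2 (5.25), Asns (4.86), Trib3 (0.925), Slc7a11 (0.298) and Chac1 (0.173). In WT it was Atf4 (259), Phgdh (105), Cebpb (56.3), Psat1 (54.7), Ddit3 main model (53.7), Asns (26.1), Sesn2 (5.99), Chac1 (3.09), Trib3 (2.04) and Slc7a11 (1.63). With both Ddit3 models summed, Ddit3 would rank above Phgdh in ENT1KO (103.9 TPM) and above Cebpb in WT (79.2 TPM). The ranges of neighbours overlapped in ENT1KO for Ddit3 and Psat1, for Sesn2 and Asns, and for Slc7a11 and Chac1. In WT they overlapped for Cebpb, Psat1 and Ddit3 and among Chac1, Trib3 and Slc7a11. Asns ranked above Sesn2 in WT without overlap, at 18.96 to 35.29 TPM against 4.94 to 6.88 TPM, and just below it in ENT1KO with overlap.

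The lowered genes and the summed markers of other cell types were both lower in ENT1KO, and within a genotype their order matched only in part. WT replicate 2 had the highest Asns, Chac1, Slc7a11 and Cebpb of the 7 libraries. The same library was highest in Atf4, Phgdh, Psat1 and Trib3, which were not called. It also had the highest fibroblast and tumour sum (8668 TPM), the highest macrophage sum (5874 TPM) and the lowest CD8 T cell sum (2891 TPM). Among ENT1KO libraries, replicate 14 had the highest fibroblast and tumour sum (2288 TPM, 908 TPM without Thy1) and macrophage sum (1555 TPM). Replicate 14 was also highest of the 4 in Chac1 (0.47 TPM) and Cebpb (28.3 TPM), second in Asns (5.59 TPM) and lowest in Slc7a11 (0.19 TPM). ENT1KO replicate 15, with the lowest macrophage sum (345 TPM), was lowest in Chac1 (0.04 TPM) and Asns (3.97 TPM). It was second highest of the 4 in Slc7a11 (0.37 TPM). WT replicate 3 had the lowest WT sums of both lists and the lowest WT Asns, Chac1 and Slc7a11. Cebpb was lowest of the WT libraries in replicate 1 (47.9 TPM). With the macrophage sum as a covariate the limma difference was -1.41 for Asns (adjusted p = 0.69), -0.89 for Chac1 (adjusted p = 0.737), -1.17 for Slc7a11 (adjusted p = 0.69) and -0.67 for Cebpb (adjusted p = 0.728), and no gene of 13798 was called by limma (946 at an unadjusted p under 0.05). With the fibroblast and tumour sum it was -0.68 for Asns, -0.01 for Chac1, -1.01 for Slc7a11 and -0.47 for Cebpb (limma adjusted p = 0.9998 each), and again no gene was called (271 unadjusted). With that list freed of Thy1, a step chosen after the data were seen, it was -1.69 for Asns (limma adjusted p = 0.129), -1.25 for Chac1 (limma adjusted p = 0.208), -1.16 for Slc7a11 (limma adjusted p = 0.159) and -0.91 for Cebpb (limma adjusted p = 0.177). The sums of the 2 genotypes lay apart, so these covariates and genotype share most of their variation. The part of other cell types in the lower levels was not tested further and cannot be told apart from genotype in this design.

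**Figure D4:**
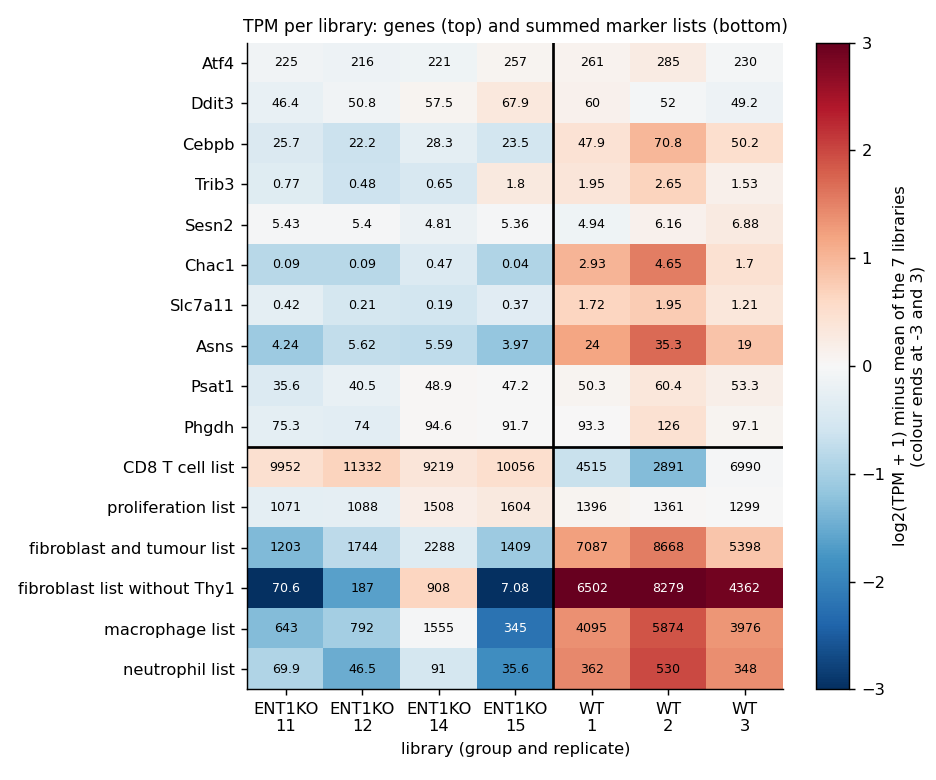
TPM of the 10 genes (top) and of summed marker lists (bottom) in each library, ENT1KO left of the vertical line and WT right; cells print the TPM and colours show log2(TPM + 1) minus the mean of the 7 libraries, ending at -3 and 3. Asns, Chac1, Slc7a11 and Cebpb have the same sides of the colour scale as the macrophage and neutrophil lists, and Atf4, Ddit3, Sesn2, Psat1 and Phgdh stay pale.

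Other ATF4 target genes were lower more than higher. Of 30 listed genes 25 were tested, and 12 fell and 2 rose (15 fell and 1 rose on normalized counts), with a median log2 difference of -0.42 against 0.15 for all tested genes. Among all tested genes 23.1% fell and 27.5% rose on TPM, and 28.0% fell and 21.0% rose on normalized counts. Of the genes that fell, Cth reached 1 TPM in WT libraries only and so had to differ. Gpt2, Slc6a9 and Slc1a4 reached it in ENT1KO only in replicate 14. Cth, Gpt2 and Slc6a9 are named after their values were seen, and the count of falls is a description. With the macrophage or the fibroblast and tumour covariate limma called 0 of 13798 genes, so none of the 14 calls could hold. At an unadjusted p under 0.05 there were 2 and 1 of 25, against 946 and 271 of all 13798. Hmox1, the haem oxygenase that macrophages express strongly, was at 8.47 ± 3.70 TPM in ENT1KO and 96.2 ± 19.1 TPM in WT (SD, n = 4 and n = 3; log2 difference -3.42, limma adjusted p = 0.00121). Eif4ebp1, an inhibitor of cap-dependent translation, was at 9.87 ± 4.11 TPM in ENT1KO and 51.1 ± 14.2 TPM in WT (-2.30, limma adjusted p = 0.00142). Slc1a4, a transporter of serine, alanine and cysteine, was at 1.05 ± 1.12 TPM in ENT1KO and 11.7 ± 3.16 TPM in WT (-2.73, limma adjusted p = 0.00156), with ENT1KO replicate 14 the highest of its group. The 2 genes that rose, named after their values were seen, were the glutamine transporter Slc1a5 (164.7 ± 12.1 TPM in ENT1KO and 91.1 ± 19.1 TPM in WT; 0.87, limma adjusted p = 0.00325) and Slc3a2, the heavy chain shared by several amino acid exchangers, including that formed with Slc7a11 (242 ± 13.9 TPM in ENT1KO and 190 ± 31.3 TPM in WT; 0.36, limma adjusted p = 0.0429). Slc3a2 did not pass on normalized counts (limma adjusted p = 0.155), and it lost its call when any single library other than WT replicate 3 was left out (limma adjusted p up to 0.133). The Slc1a5 call held with each single library left out and on normalized counts. The mitochondrial folate enzymes Mthfd2, Mthfd1l and Shmt2, also named after their values were seen, had log2 differences of 0.15, 0.08 and -0.13 and were not called.

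The cytosolic aminoacyl-tRNA synthetases charge tRNAs with amino acids and include many ATF4 targets. Of 20 tested, 7 fell, 12 were not called and 1 rose on TPM, against 23.1% lower and 27.5% higher among all tested genes. Their median was -0.30 on TPM. On normalized counts 12 fell and none rose, against 28.0% and 21.0% of all tested genes. There, 14 of 20 had an unadjusted p under 0.05, against 7792 of all 13798. The 8 calls on TPM could not hold with the macrophage or the fibroblast and tumour covariate, where limma called 0 of 13798 genes. At an unadjusted p under 0.05 there were 0 and 1 of 20, against 946 and 271 of all 13798. Tars was at 41.0 ± 6.30 TPM in ENT1KO and 72.6 ± 13.8 TPM in WT (-0.80, limma adjusted p = 0.00605), Aars at 32.2 ± 1.03 TPM in ENT1KO and 44.0 ± 4.78 TPM in WT (-0.44, limma adjusted p = 0.00906) and Kars at 131 ± 11.7 TPM in ENT1KO and 183 ± 16.5 TPM in WT (-0.48, limma adjusted p = 0.00925). The riser, named after its values were seen, was Qars, at 0.45 (limma adjusted p = 0.0127), which did not pass on normalized counts, at 0.11 (limma adjusted p = 0.349). Without WT replicate 2 the list had 5 calls, 4 of them lower.

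The upstream list holds the eIF2 kinases, the kinase regulators Gcn1, Impact, Dele1 and Oma1, the eIF2 and eIF2B subunits and the eIF2 phosphatase subunits. It had 5 rises and 1 fall among 18 genes on TPM, a balance that turned to 1 rise and 5 falls on normalized counts. The rises on TPM are near the 27.5% of all tested genes that rose. The 6 calls could not hold with the macrophage or the fibroblast and tumour covariate, where limma called 0 of 13798 genes. At an unadjusted p under 0.05 there were 1 and 0 of 18, against 946 and 271 of all 13798. The median was 0.10 on TPM. Eif2b3, a subunit of the exchange factor that eIF2 phosphorylation inhibits, fell on both scales (15.4 ± 1.02 TPM in ENT1KO and 22.9 ± 3.47 TPM in WT; -0.53, limma adjusted p = 0.00979). Ppp1r15b, the constitutive eIF2 phosphatase subunit, was at 57.2 ± 2.60 TPM in ENT1KO and 44.9 ± 3.67 TPM in WT (0.34, limma adjusted p = 0.0178). Impact, an inhibitor of GCN2 activation, was at 46.2 ± 11.9 TPM in ENT1KO and 28.4 ± 3.63 TPM in WT (0.66, limma adjusted p = 0.0189). Ppp1r15b and Impact did not pass on normalized counts (limma adjusted p = 0.0926 and 0.165). Calls were also lost without WT replicate 2 for both genes, without ENT1KO replicate 11 for Ppp1r15b and without WT replicate 3 for Impact. The riser on both scales, named after its values were seen, was Eif2ak3, the kinase PERK of the endoplasmic reticulum branch (37.0 ± 7.79 TPM in ENT1KO and 21.5 ± 5.73 TPM in WT; 0.77, limma adjusted p = 0.0192), which did not pass without WT replicate 2. Eif2ak4, the amino acid sensor GCN2, also named after its values were seen, was at 8.23 ± 0.80 TPM in ENT1KO and 8.37 ± 0.46 TPM in WT (-0.03, limma adjusted p = 0.879). Without WT replicate 2 the list had 1 call, Eif2b3, and without ENT1KO replicate 11 it had 3.

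**Figure D5:**
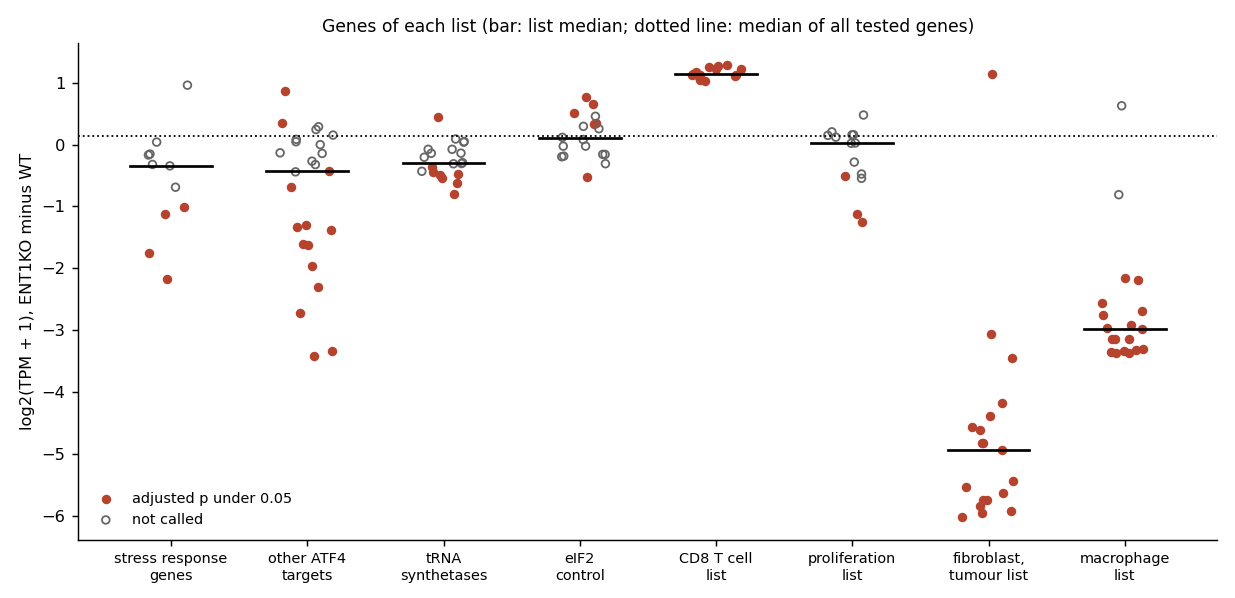
Log2 difference, ENT1KO minus WT, of each tested gene of the stress response set, the pathway lists and the marker lists (red, adjusted p under 0.05; open, not called; bar, list median; dotted line, median of all tested genes at 0.15). The other ATF4 targets spread from -3.42 to 0.87, the tRNA synthetases from -0.80 to 0.45, and the CD8 T cell genes sit between 1.03 and 1.28.

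The profiles nearest to the called genes were found by the root mean square distance between gene-mean-centred log2(TPM + 1) values over the 7 libraries, among 9582 protein-coding genes with a mean of at least 5 TPM. For Asns these were Niban2 (distance 0.13; 8.98 TPM in ENT1KO and 41.7 TPM in WT) and Phlda1 (0.13; 13.0 TPM in ENT1KO and 62.9 TPM in WT). For Chac1 they were Tnfrsf23 (0.08; 2.985 TPM in ENT1KO and 12.8 TPM in WT) and Dag1 (0.11; 6.495 TPM in ENT1KO and 24.3 TPM in WT). For Slc7a11 they were Fech (0.10; 15.9 TPM in ENT1KO and 29.0 TPM in WT) and Scoc (0.10; 22.3 TPM in ENT1KO and 42.5 TPM in WT). For Cebpb it was Mvk (0.08; 7.08 TPM in ENT1KO and 17.0 TPM in WT). Chac1 and Slc7a11 had larger TPM ratios between the genotypes than these neighbours, because log2(TPM + 1) understates the change of low genes. The distances are a description of likeness on that scale over these libraries.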

How the data were processed

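Per the labels' protocols, poly(A) RNA-seq libraries (75 ng RNA each) were made from 4 ENT1KO and 3 WT samples grouped by title. The authors deposited a TPM table and a comparison table. The comparison table holds, as deposited by the authors, a signal for each sample (reads per gene over 1 size factor a sample, called normalized counts), log2 fold changes and their standard errors, a test statistic (score), and raw and adjusted p-values. Tools named without roles in the submitters' processing notes are STAR 2.7.1a, RSEM, DESeq, DESeq2 1.30.1 and Trimmomatic (0.35, 0.38), with the build GRCm39. For the annotation release, none was given in the sources used here, and the TPM file's name says stranded. Dividing normalized counts by each column's smallest value gave whole numbers throughout (100% within a tolerance of 0.01) and hence the read totals. For WT replicates 1 and 3 that step lies so near 1 that it was not accepted as proof of whole reads, so no count test was run and no counting intervals were computed.

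The 10 members and all lists were chosen with earlier results of these data known. limma 3.58.1 in R 4.3.3 was used (limma-trend, robust empirical Bayes, log2(TPM + 1), genotype only, adjustment over 13798 genes), with standard errors and 95% intervals from the same fit. TPM is relative to the library total, so a change in abundant transcripts shifts all others. The fit was tested on simulated data with 50 genes changed at each fold. It recovered 24% of 1.5-fold, 50% of 2-fold, 96% of 4-fold and 90% of 8-fold changes, with 7 false calls of 137. The simulation changed a far smaller share of genes than the 50.6% called in these data. Its adjusted cut-off was therefore stricter, and its rates do not give the recovery in these data. A small difference can still fail to pass, and a gene that was not called is not shown to be unchanged. Named genes are the members, Slc29a1, the 3 genes of smallest p in each pathway list, the 2 nearest profiles of each called member (1 of them is not reported here), and defining markers. Other exceptions are stated where they occur, apart from Thy1, Birc5 and the ATF4 targets below the filter, which also fall outside this rule. Alternatives were pseudocounts of 0.1 and 5, quantile normalization, normalized counts, filters, list covariates and left-out libraries. The covariate without Thy1 and the summed Ddit3 models were added once results had been seen. The 17 tRNA synthetases with older symbols in the table were matched by those. Promoter sequences are RefSeq's (GRCm38.p6), and gene positions are those of the deposited table (GRCm39). Plots used Python 3.11.15 with matplotlib 3.10.9.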

Additional observations from a re-analysis of the deposited data

Results flagged for a closer look

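In 2 of 20 sets of ENT1KO values examined (the 11 gene rows and the list sums), 1 library stood apart from the other 3 by Dixon's test at 95%, where chance gives about 1 in 20. Chac1 was at 0.47 TPM in ENT1KO replicate 14, above 0.04 to 0.09 TPM in the other ENT1KO libraries. This library also had the highest ENT1KO sum of the fibroblast and tumour list (908 TPM without Thy1), and the Chac1 call held without it. Sesn2 was at 4.81 TPM in ENT1KO replicate 14, below 5.36 to 5.43 TPM in the others.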

How the results depend on the processing

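No paired analysis was possible because the ENT1KO and WT samples share no replicate numbers. Over all genes, 6982 calls became 4840 to 6853 with 1 library left out. The 11 member rows had 4 to 6 calls with 1 library left out, and Asns, Chac1, Slc7a11 and Cebpb kept their calls in each of those 7 fits. Without ENT1KO replicate 14 and without WT replicate 1, 1 of the calls was higher, that of the second Ddit3 model. With the filter at 5 TPM in 3 samples 2 members were called, because Chac1, Slc7a11 and Trib3 were no longer tested. With the macrophage or the fibroblast and tumour covariate limma called 0 genes (946 and 271 at an unadjusted p under 0.05), 0 members (3 and 0 unadjusted) and 0 genes of each pathway list (0 to 2 unadjusted). With Thy1 taken out of the fibroblast list, a change chosen after seeing the data, 3 genes were called. None of them was a member or a gene of a pathway list. At an unadjusted p under 0.05 there were 5 members and 0 to 9 genes of each pathway list, against 2835 of all 13798. The pathway lists had 1 to 6 calls for eIF2 control, 11 to 15 for other ATF4 targets and 5 to 12 for tRNA synthetases when 1 library was left out. Leaving out WT replicate 2 gave the lowest count in each of these lists, and without ENT1KO replicate 11 the eIF2 list had 3 calls.

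Signs turned for members that were not called. Ddit3 was at -0.10 after quantile normalization, -0.12 on normalized counts, -0.20 with the macrophage covariate, -0.16 with the fibroblast covariate without Thy1 and from -0.059 (without ENT1KO replicate 15) to 0.12 (without WT replicate 1) with 1 library left out, with -0.02 without WT replicate 3. The second Ddit3 model was at -0.42 with the macrophage and -0.19 with the fibroblast covariate, and it gives no value on normalized counts. With the fibroblast covariate Psat1 was at 0.31 and Phgdh at 0.33, and Sesn2 was at 0.16 after quantile normalization. The causes were not tested. Depth limits Chac1, with ENT1KO normalized counts of 0.98 to 11.5, and the second Ddit3 model has a normalized count of 0 in every library.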

Other observations

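Of the other ATF4 targets, 5 lay below the filter and were not tested. Gdf15 averaged 0.075 TPM in ENT1KO and 0.75 TPM in WT, and Vldlr averaged 0.0675 TPM in ENT1KO and 1.61 TPM in WT. Aldh1l2 averaged 0.203 TPM in ENT1KO and 1.72 TPM in WT, Pycr1 0.383 TPM in ENT1KO and 1.55 TPM in WT, and Slc7a3 0.215 TPM in ENT1KO and 0.34 TPM in WT. The groups did not overlap for Gdf15, Vldlr, Aldh1l2 and Pycr1, all lower in ENT1KO, as for 24.9% of all tested genes. These genes were near the floor in ENT1KO, with normalized counts of at most 6.7, 18.2, 16.3 and 8.78 in that order. In the proliferation list 3 of 14 genes fell and none rose in limma, against 23.1% and 27.5% of all tested genes, with a median log2 difference of 0.02. The 3 genes, named after their values were seen, were Ccnb1, Ccnb2 and Cdk1, with log2 differences of -1.25, -0.51 and -1.13. Top2a was at 0.15 and Birc5 at -0.55 without a call. At an unadjusted p under 0.05 Mki67 alone was higher. It averaged 66.6 ± 13.7 TPM in ENT1KO and 47.6 ± 11.2 TPM in WT (SD, n = 4 and n = 3), a log2 difference of 0.48 (limma adjusted p = 0.0679).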
